A study of Rattus norvegicus with 44 samples.

Results

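AMPA and kainate receptors were described here by the messenger RNA of the 9 genes that encode their subunits, Gria1, Gria2, Gria3 and Gria4 for AMPA receptors and Grik1, Grik2, Grik3, Grik4 and Grik5 for kainate receptors. The members are the rows with these symbols in the 2 deposited tables, and all 9 were found in each region, among 20003 genes for CA1 and 20050 for the dentate gyrus (DG). RNA was sequenced from CA1 and DG of the same hippocampus in 22 male rats, which gave 44 libraries. Young LPS rats (n = 8) were 5 to 7 months old and had lipopolysaccharide, a bacterial endotoxin, by intraperitoneal injection at 1 mg per kg each week for 7 weeks. Aged vehicle rats (n = 6) were 14 to 16 months old and had saline on the same schedule, as had young vehicle rats (n = 8), which were 5 to 7 months old. Tissue was taken 48 hours after the last injection in every group, and both vehicle groups therefore shared the injections and differed in age.

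Both receptor families are tetrameric ion channels opened by glutamate. AMPA receptors carry most fast excitatory current in the hippocampus, and the subunit encoded by Gria2, once its RNA has been edited, makes the channel nearly impermeable to calcium. Kainate receptors act on both sides of the synapse; the subunits encoded by Grik1, Grik2 and Grik3 can form channels alone, while those encoded by Grik4 and Grik5 need one of these as a partner. In the hippocampus kainate receptors are best known at the mossy fibre synapse between dentate granule cells and CA3 pyramidal cells.

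Every subunit was well covered. The lowest count behind any value was 79 reads, for Grik1 in a DG library, and the highest was 23430 reads, for Gria2 in DG. CA1 libraries held 12292346 to 18749663 recovered reads, and DG libraries 12130182 to 23519791. In RPM (recovered reads scaled to a common total over the 19882 genes shared by both tables), the summed level of 8 CA1 pyramidal markers was 1675 to 3694 in CA1 libraries and 148 to 1072 in DG libraries, without overlap. The sum of 9 dentate granule markers was 81.5 to 496 in libraries labelled CA1 and 437 to 861 in those labelled DG, with some overlap. Of 5 CA3 pyramidal markers, the 4 listed for both regions summed to 41.6 to 102 RPM in CA1 and 38.5 to 94.5 in DG. The remaining CA3 marker was listed for DG alone. In normalized counts the 4 summed to 638 to 1662 in CA1 libraries, and all 5 to 2667 to 8697 in DG libraries. The CA1 library of aged rat 2532 stood apart. In it 4107 of 14915 tested genes lay more than 2-fold from the median of its own group, against 262 to 1822 in the other CA1 libraries, and ribosomal protein genes took 0.571% of its reads, against 0.839% to 1.56%. Its DG library had 536 such genes, within the range of the other DG libraries. Calls by limma that include this CA1 library are given with and without it, while edgeR and DESeq2 were run with all rats only. Tissue was bulk, so fewer cells of a type and less RNA per cell cannot be told apart.

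Promoter sequences are shown for Gria4, Grik2 and Grik5, because the first 2 varied together across CA1 libraries and the last varied opposite to them. They come from RefSeq (build GRCr8), run 5′ to 3′ along the gene's own strand, cover 250 bases before the annotated start and 50 from it, and were found for 6 of the 9 genes. Capitals mark a GC box (GGGCGG, or CCGCCC on the other strand, a motif bound by Sp factors) or a cyclic AMP response half-site (TGACG, or CGTCA on the other strand); the 2 motifs do not overlap here.
Gria4, chr8:10319832-10320131, minus strand: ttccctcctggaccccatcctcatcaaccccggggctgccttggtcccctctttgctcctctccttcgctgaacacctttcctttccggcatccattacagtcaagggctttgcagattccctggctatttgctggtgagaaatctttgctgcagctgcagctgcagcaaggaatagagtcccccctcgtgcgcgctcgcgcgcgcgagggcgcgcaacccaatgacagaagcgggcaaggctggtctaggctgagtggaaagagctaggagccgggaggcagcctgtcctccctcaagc
Grik2, chr20:54415234-54415533, minus strand: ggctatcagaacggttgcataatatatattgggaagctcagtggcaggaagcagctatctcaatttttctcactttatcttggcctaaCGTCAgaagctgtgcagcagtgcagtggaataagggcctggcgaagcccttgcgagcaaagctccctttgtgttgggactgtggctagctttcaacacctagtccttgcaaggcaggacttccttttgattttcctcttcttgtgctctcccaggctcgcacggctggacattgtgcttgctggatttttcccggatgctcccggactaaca
Grik5, chr1:89794860-89795159, minus strand: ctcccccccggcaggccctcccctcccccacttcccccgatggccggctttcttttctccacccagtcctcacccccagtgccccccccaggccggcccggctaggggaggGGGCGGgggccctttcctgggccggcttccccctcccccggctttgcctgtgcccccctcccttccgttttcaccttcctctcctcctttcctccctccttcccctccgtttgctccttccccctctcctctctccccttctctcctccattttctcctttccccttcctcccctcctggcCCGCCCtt
The Grik5 window held 2 GC boxes and the Grik2 window 1 half-site, and the Gria4 window held neither. Of 33469 promoters of the same length, 33.1% held a GC box and 21.2% held the half-site. The GC content was 69.0% for Grik5, 60.3% for Gria4 and 50.3% for Grik2, against a median of 51.7% over all promoters. Among the other genes matched, the Grik3 window was 82.3% GC and held 6 GC boxes, while those of Grik1 and Grik4 held neither motif. These matches describe letters in a window and nothing more.

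The regions differed most for kainate subunits. Levels were set across regions in RPM; no test was made, since the tables were normalized separately. Grik4 was the subunit most weighted to DG, at 44.7 ± 14.8 RPM in CA1 and 115 ± 25.9 in DG (SD, n = 22 each), and DG was higher in 21 of 22 rats. The exception was young vehicle rat 2410. DG libraries carried CA3 marker signal, and the part of CA3 cells in the Grik4 level was not tested. Grik2 ran the same way, with 42.1 ± 11.2 in CA1 and 67.9 ± 10.2 in DG, and DG was higher in 20 rats. Grik1 ran the other way, with 15.9 ± 4.67 in CA1 and 8.61 ± 2.82 in DG, and CA1 was higher in 19 rats. Grik3, the other subunit that can act alone, had a median of 20.8 RPM in CA1 and 25.9 RPM in DG, and Grik5 medians of 180.3 and 215 RPM, each higher in DG in 16 rats. No subunit separated the regions in every library.

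AMPA subunits differed less between regions when averaged over all rats. Gria1 was at 534 ± 76.1 RPM in CA1 and 569 ± 53.9 in DG, and Gria2 at 698 ± 250.2 and 733 ± 124. Gria3 was at 252 ± 91.9 in CA1 and 224 ± 32.6 in DG, and Gria4 had medians of 61.1 and 64.6 RPM. The mean within-rat log2 difference, CA1 minus DG, lay between -0.13 (Gria2) and 0.10 (Gria3), against -1.39 for Grik4 and 0.89 for Grik1. Without rat 2532 it was -0.19 for Gria2 and 0.04 for Gria3. The groups were not alike: for Gria2 the mean was -0.59 in young LPS, 0.24 in aged vehicle and 0.06 in young vehicle rats, and for Gria3 -0.35, 0.58 and 0.20 in the same groups. Except for Grik4, values ranged more widely across CA1 libraries than across DG libraries when all rats were counted. Across CA1 libraries the highest normalized count was 5.74 times the lowest for Gria3, 4.90 times for Gria2 and 4.66 times for Grik5, and across DG libraries 1.65, 2.01 and 2.18 times. Rat 2532 was an extreme of each of these CA1 ranges, which without it were 2.65, 2.38 and 2.59 times. Without this rat Grik1 and Grik3 also ranged more widely in DG, at 2.94 and 2.61 times, than in CA1, at 2.67 and 2.45 times. Levels of different genes were not compared with each other, since the values are not per length.

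**Figure D1:**
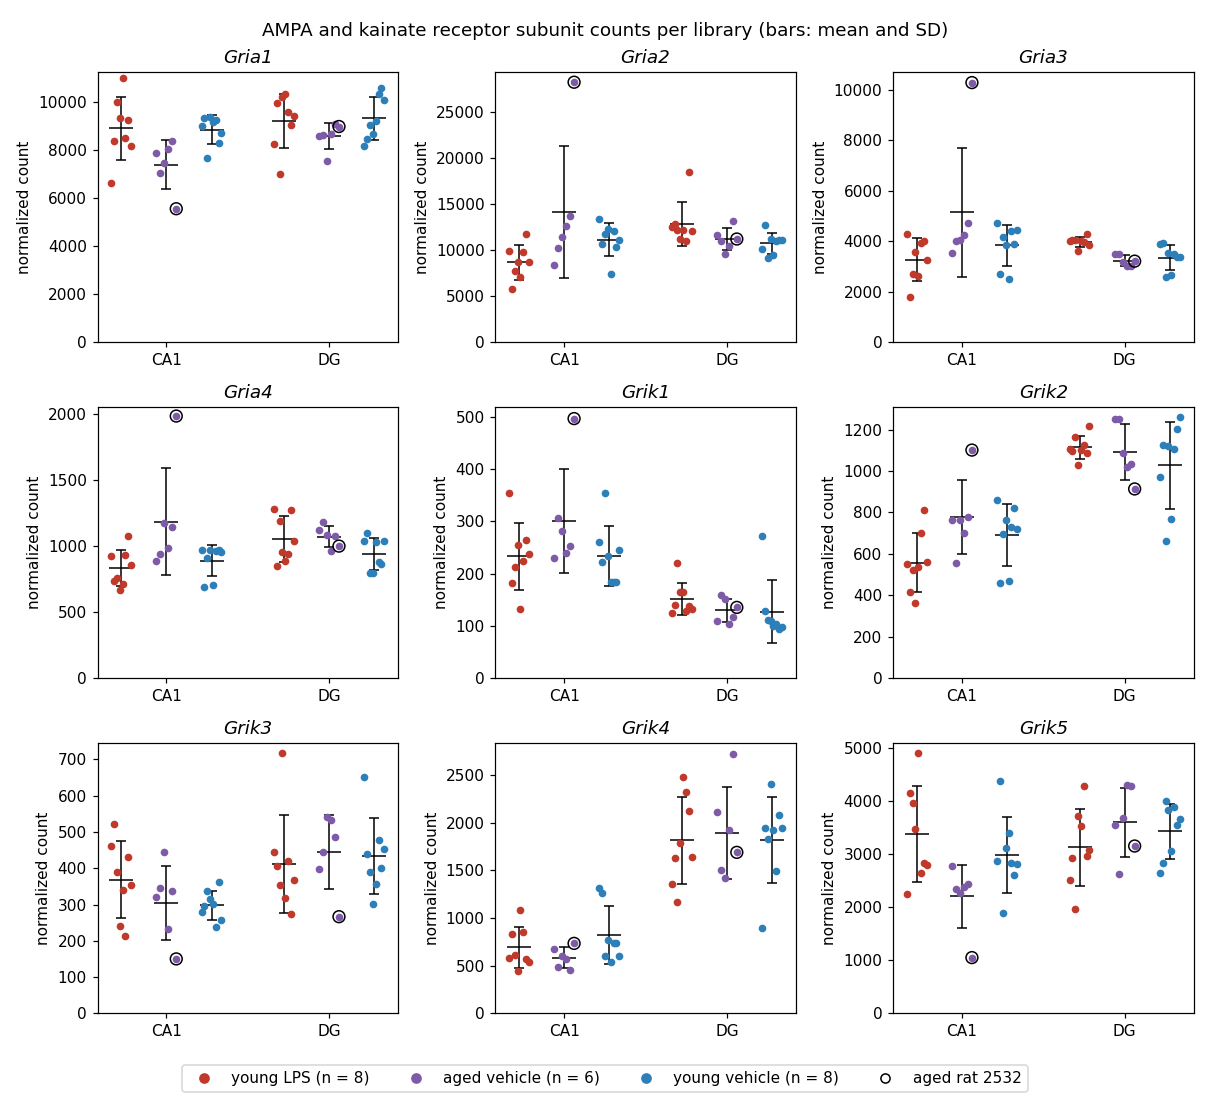
Normalized counts (vertical axes, from 0) of the 9 subunits in each library, for CA1 and DG, with young LPS, aged vehicle and young vehicle from left to right; points are libraries, bars the mean and SD, and the ring aged rat 2532. In CA1 this rat is the highest library for Gria2 (28278), Gria3 (10277) and Gria4 (1987) and the lowest for Grik5 (1052), while its DG values for these 4 genes lie among those of the other rats. It is also the highest CA1 library for Grik1 and Grik2 and the lowest for Gria1 and Grik3.

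LPS against vehicle in young rats asked whether repeated endotoxin changed the subunits. In CA1, none of the 9 passed limma at an adjusted p of 0.05, and none had an unadjusted p below 0.05; edgeR and DESeq2 on the recovered reads also called 0. Of all 14915 genes tested, 0% were called. The lowest unadjusted p was that of Gria2. Its normalized count was 5776, 8712 and 11776 (lowest, median, highest) in young LPS rats and 7460, 11457 and 13370 in young vehicle rats. LPS libraries lay low, 7 of 8 below the vehicle median, but the groups overlapped, with a log2 difference of -0.37 (SE 0.18, adjusted p = 0.654). Grik2, the main kainate subunit of principal cells, was 557 ± 144 in young LPS and 689 ± 149 in young vehicle (SD, n = 8 each), a log2 difference of -0.31 (SE 0.16, adjusted p = 0.654). The other 7 members had log2 differences from -0.25 (Gria3) to 0.26 (Grik3). Gria1 was 8892 ± 1310 in young LPS and 8830 ± 601 in young vehicle, and the 95% confidence interval of its log2 difference ran from -0.20 to 0.20.

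In DG, LPS values of Gria2 and Gria3 lay above those of vehicle without passing the test across all genes. No member was called by limma, edgeR or DESeq2, and 2 had an unadjusted p below 0.05, as had 7.53% of all genes; 0.0134% of 14904 tested genes were called by limma. Gria3 was 3605, 4000 and 4281 (lowest, median, highest) in young LPS rats and 2600, 3442 and 3947 in young vehicle rats. All 8 LPS libraries were above the vehicle median and the ranges overlapped. Its log2 difference was 0.26 (SE 0.08, adjusted p = 0.515, limma). Gria2 was 12837 ± 2371 in young LPS and 10764 ± 1132 in young vehicle (SD, n = 8 each), a log2 difference of 0.24 (SE 0.09, adjusted p = 0.561), with LPS rat 2573 highest at 18507. Grik1 was 151 ± 31.5 in young LPS and 127 ± 60.1 in young vehicle, where rat 2410 reached 273; all 8 LPS libraries exceeded the vehicle median of 106, and the log2 difference was 0.32 (SE 0.18, adjusted p = 0.693). Estimates of the other members lay between -0.15 (Grik5) and 0.15 (Gria4).

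Age was tested by aged vehicle against young vehicle. In CA1, limma called 0 of 9 members, with 4 at an unadjusted p below 0.05 (Gria1, Gria4, Grik4 and Grik5), as had 12.6% of all genes, and edgeR and DESeq2 called 0; 0.0134% of all genes were called. Aged values were low for Gria1, the subunit with a central part in activity-dependent AMPA receptor delivery. It was 5551, 7645 and 8345 (lowest, median, highest) in aged vehicle and 7649, 9071 and 9357 in young vehicle rats. All 6 aged libraries lay below the young median, with overlap, and the log2 difference was -0.27 (SE 0.10, adjusted p = 0.393), which was -0.19 without rat 2532. Grik5 also lay low, at 2207 ± 593 in aged vehicle (SD, n = 6) and 2988 ± 713 in young vehicle (SD, n = 8), a log2 difference of -0.46 (SE 0.20, adjusted p = 0.393), which was -0.26 without rat 2532. For Grik4 the values were 585 ± 108 in aged vehicle and 821 ± 300.0 in young vehicle, a log2 difference of -0.43 (SE 0.21), with all 6 aged libraries below the young median. Gria4 was 1186 ± 408 in aged vehicle and 890 ± 120.0 in young vehicle, a log2 difference of 0.37 (SE 0.15), which was 0.21 without rat 2532. In DG, limma called 0 of 9 members, none had an unadjusted p below 0.05, edgeR and DESeq2 called 0, and 0.0134% of all genes were called. The estimates there ran from -0.12 (Gria1) to 0.19 (Gria4).

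**Figure D2:**
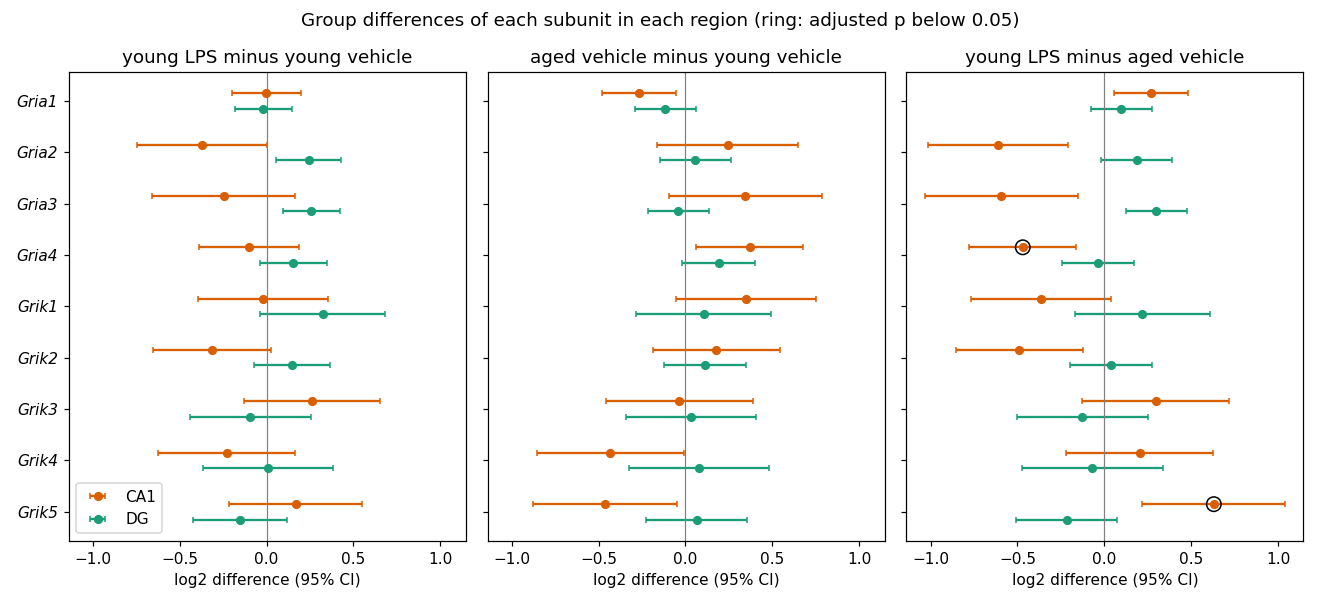
Log2 difference (horizontal axes) of each subunit with its 95% confidence interval in CA1 and DG, for the 3 pairs of groups, LPS or aged rats always minus their comparison group; rings mark an adjusted p below 0.05 by limma. Gria4 (-0.47) and Grik5 (0.63) carry a ring, both in CA1 in young LPS against aged vehicle. All members but Gria1 and Gria4 have estimates of opposite sign in CA1 and DG there.

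Young LPS against aged vehicle gave the only calls among the members in CA1. These groups differ in treatment and in age at once. An effect of LPS and an effect of age therefore cannot be told apart in any result of this comparison. Grik5 was higher in LPS rats and Gria4 lower, both at an adjusted p of 0.0499 (limma), 2 of 9 members against 8.73% of all genes tested. By edgeR 4 members were called and by DESeq2 6. The 8.73% is the share for limma alone, and the number of all genes called ranged from 0 to 3496 across alternative settings. The 3 comparisons share samples, so their values stand side by side and are not separate evidence. Grik5 was 2254, 3149 and 4905 (lowest, median, highest) in young LPS rats and 1052, 2359 and 2773 in aged vehicle rats, a log2 difference of 0.63 (SE 0.20). Most LPS libraries lay high, 7 of 8 above the aged median, and the ranges overlapped. Gria4 was 669, 806 and 1074 in young LPS rats and 886, 1063 and 1987 in aged vehicle rats, a log2 difference of -0.47 (SE 0.15). Here 7 of 8 LPS libraries lay below the aged median, again with overlap.

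The other AMPA subunits came close to the threshold. Gria2 was 8698 ± 1870 in young LPS (SD, n = 8) and 14138 ± 7176 in aged vehicle (SD, n = 6), a log2 difference of -0.61 (SE 0.20, adjusted p = 0.0507), and all 8 LPS libraries lay below the aged median of 12064. Gria3 was 3274 ± 849 in young LPS and 5141 ± 2546 in aged vehicle, a log2 difference of -0.59 (SE 0.21, adjusted p = 0.0637). Gria1 went the other way, at 8892 ± 1310 in young LPS and 7380 ± 1005 in aged vehicle, a log2 difference of 0.27 (SE 0.10, adjusted p = 0.0765). Among kainate subunits, Grik2 was 557 ± 144 in young LPS and 777 ± 180 in aged vehicle (log2 difference -0.49, SE 0.18, adjusted p = 0.0640), and Grik1, Grik3 and Grik4 had log2 differences of -0.37, 0.29 and 0.20. Without rat 2532 the log2 differences were -0.37 for Gria3 (adjusted p = 0.197, limma), 0.19 for Gria1, -0.38 for Grik2, -0.21 for Grik1, 0.11 for Grik3 and 0.27 for Grik4. The median absolute log2 difference was 0.47 over the members and 0.27 over all genes.

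Neither call held without aged rat 2532, whose CA1 library had 28278 for Gria2 where the other 5 aged libraries ran up to 13775. Without this rat the log2 difference was 0.43 for Grik5 (adjusted p = 0.140), -0.31 for Gria4 (adjusted p = 0.136) and -0.39 for Gria2 (adjusted p = 0.138), and limma called 0 of the 14915 genes, with 3676 at an unadjusted p below 0.05. In 15 of the 22 fits that left out 1 rat, no member was called; the exceptions were the fits without 2403, 2411, 2412, 2523, 2547, 2572 or 2573, which called 3 to 5. Rat numbers begin with 24, 25 or 27, and groups were spread unevenly over these number series. Within series 24, which holds 3 LPS and 4 aged rats but not 2532, the log2 differences of means were 0.45 for Grik5, -0.31 for Gria4, -0.47 for Gria2 and -0.52 for Gria3. Within series 25, with 4 LPS rats and 2 aged rats of which 2532 is 1, they were 1.07 for Grik5, -0.86 for Gria4 and -1.10 for Gria2. Series 27 holds no aged rat.

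**Figure D3:**
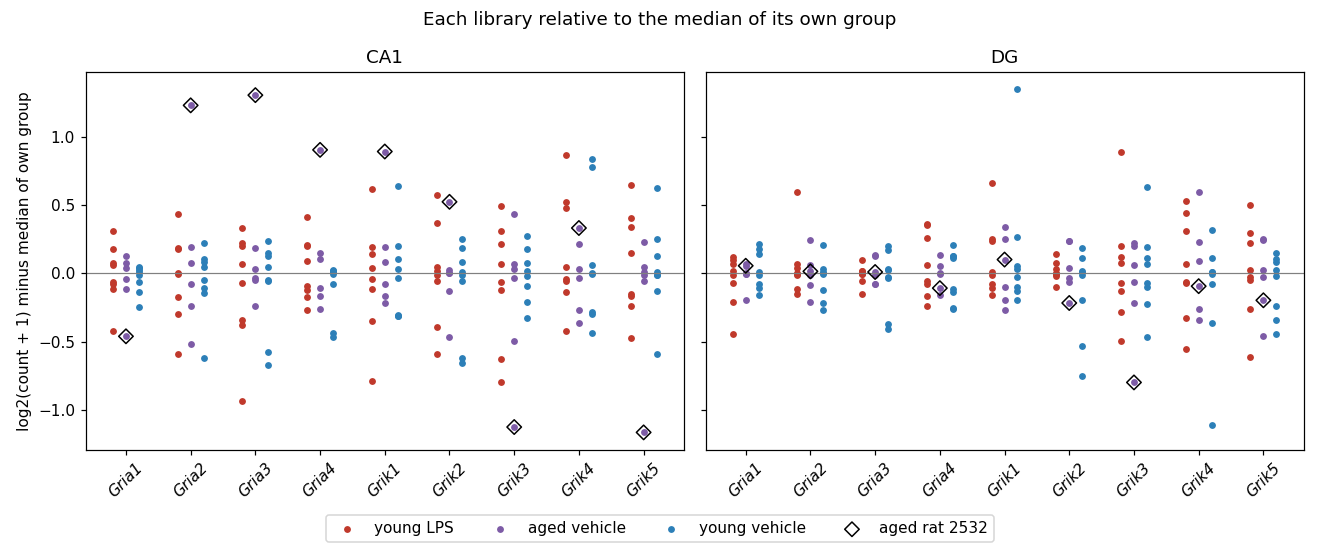
Log2(count + 1) of each library minus the median of its own group (vertical axis) for each subunit in CA1 and DG; points are libraries, coloured by group, and diamonds mark aged rat 2532. In CA1 that rat is the highest aged library for Gria2, Gria3, Gria4, Grik1, Grik2 and Grik4 and the lowest for Gria1, Grik3 and Grik5. In DG it is the lowest aged library for Grik2 (913) and Grik3 (267).

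In DG the same comparison gave no call by limma, edgeR or DESeq2, with 1 member, Gria3, at an unadjusted p below 0.05 (9.10% of all genes) and 0.0134% of all genes called. Gria3 was the one member whose groups did not overlap. It was 3605, 4000 and 4281 (lowest, median, highest) in young LPS rats and 3017, 3192 and 3508 in aged vehicle rats, a log2 difference of 0.30 (SE 0.09, adjusted p = 0.270, limma). Groups without overlap and higher in LPS were found for 0.208% of all tested genes in DG, and genes without overlap and lower in LPS were not counted. Within series 24 and 25 the log2 differences of means were 0.29 and 0.34, and with array weights it passed (log2 difference 0.29, adjusted p = 0.0251). The number of all genes called in this comparison ranged from 0 to 171 across alternative settings. The other 8 members had log2 differences from -0.22 (Grik5) to 0.22 (Grik1). Summed CA1 pyramidal markers in these DG libraries were 2359, 6676 and 11857 (lowest, median, highest) in young LPS and 2597, 11287 and 17056 in aged vehicle rats. Across DG libraries with each group centred, the mean log2 level of these markers had a correlation of 0.04 with Gria3. Centring removes differences between groups, and the part of these markers in the DG values was not tested.

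Whether an effect differed between regions was tested on the difference CA1 minus DG of log2 counts within each rat. For LPS against vehicle in young rats, limma called 0 of 9 members and 0% of 14637 genes, with 3 members at an unadjusted p below 0.05, as had 13.4% of all genes. Gria2 had the lowest p. Its CA1 minus DG difference was -1.15, -0.56 and -0.15 (lowest, median, highest) in young LPS rats and -0.35, 0.06 and 0.40 in young vehicle rats. All 8 LPS rats lay below the vehicle median, with some overlap, and the contrast was -0.61 (SE 0.18, adjusted p = 0.338, limma). For Gria3 the contrast was -0.51 (SE 0.21, adjusted p = 0.346) and for Grik2 -0.46 (SE 0.19, adjusted p = 0.346). For age, 0 of 9 members and 0% of genes were called, with 1 member, Grik5, at an unadjusted p below 0.05, as had 5.52% of all genes (contrast -0.53, SE 0.25, adjusted p = 0.727).

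For young LPS against aged vehicle, a contrast of regions added after the values were seen, Gria2 and Gria3 were lower and Grik5 higher, 3 of 9 members against 12.6% of all genes. Gria3 had a CA1 minus DG difference of -1.17, -0.17 and 0.10 (lowest, median, highest) in young LPS rats and 0.01, 0.43 and 1.68 in aged vehicle rats, a contrast of -0.89 (SE 0.22, adjusted p = 0.0259, limma). All 8 LPS rats lay below the aged median and the ranges overlapped slightly. The contrast was -0.80 for Gria2 (SE 0.20, adjusted p = 0.0259) and 0.85 for Grik5 (SE 0.25, adjusted p = 0.0343). Without rat 2532 the contrasts were -0.67 for Gria3, -0.58 for Gria2 and 0.68 for Grik5, with adjusted p-values of 0.0858, 0.0852 and 0.119. No member was called either without 2404, 2408, 2420 or 2543, 1 was called without 2415 and 2 without 2531.

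**Figure D4:**
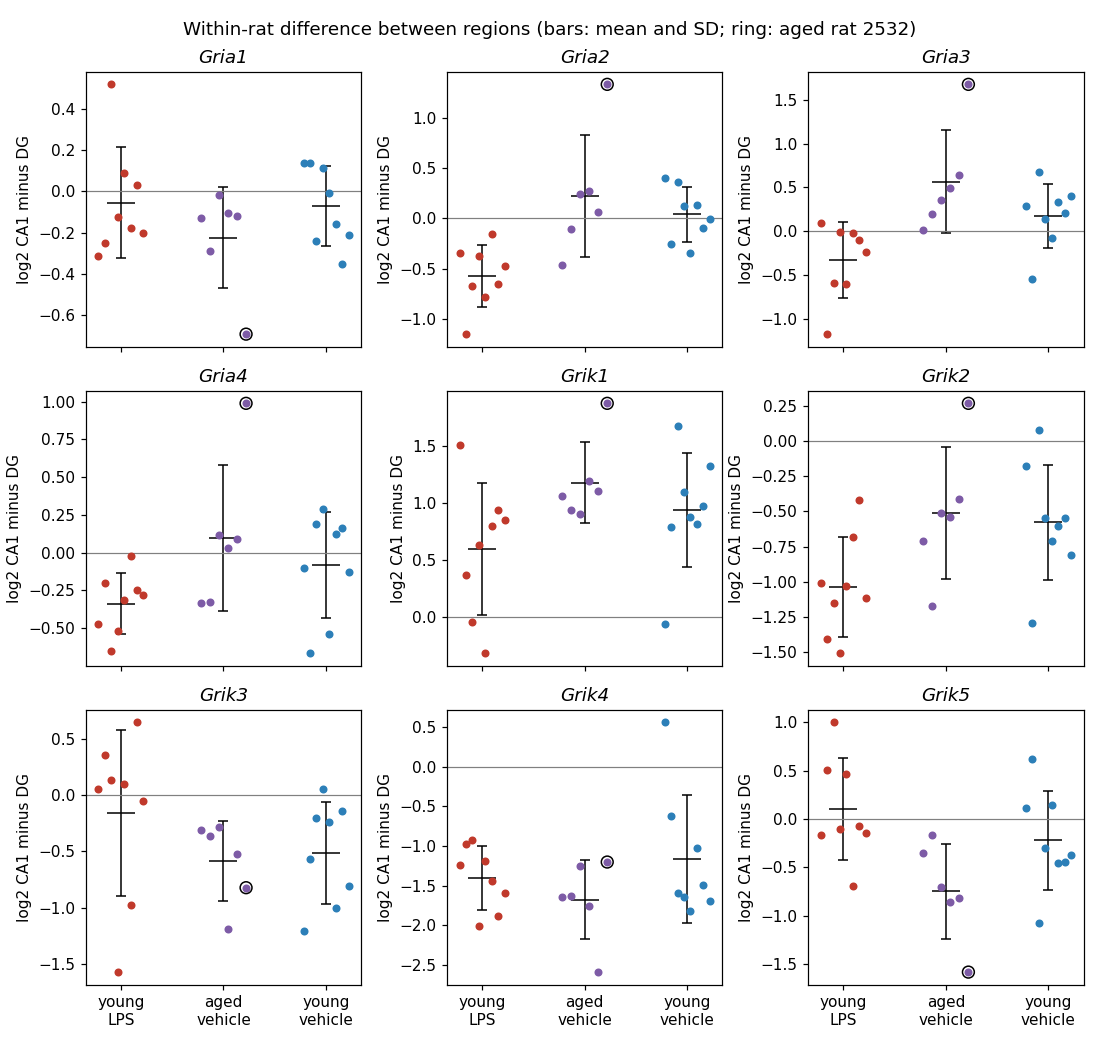
Difference of log2(count + 1) between CA1 and DG of the same rat (vertical axes) for each subunit in young LPS, aged vehicle and young vehicle rats; points are rats, bars the mean and SD, and the ring aged rat 2532. For Gria2 all 8 young LPS rats lie below 0, between -1.15 and -0.15, and for Grik4 all rats but young vehicle rat 2410 lie below 0.

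Ratios of subunits within a library carry the same contrast without any scaling between libraries. The Gria1 to Gria2 ratio of counts in CA1 was 0.666, 1.00 and 1.55 (lowest, median, highest) in young LPS rats, 0.196, 0.642 and 0.933 in aged vehicle rats, and 0.647, 0.772 and 1.23 in young vehicle rats. In DG it was 0.488, 0.776 and 0.901 in young LPS, 0.688, 0.781 and 0.823 in aged vehicle, and 0.663, 0.919 and 0.984 in young vehicle rats. The LPS median was thus the highest of the groups in CA1. In DG it was close to the aged median and below the young vehicle median, and groups overlapped in each region. The Grik5 to Grik2 ratio in CA1 had medians of 6.13 in young LPS, 3.26 in aged vehicle and 3.91 in young vehicle rats. Without rat 2532 the aged ratios in CA1 lay between 0.606 and 0.933 for Gria1 to Gria2, and the aged median was 3.40 for Grik5 to Grik2. These ratios compare counts of unequal genes and were not tested.

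Genes that work with the subunits were followed through a list of 41, of which 38 were tested in both regions; Shisa9, Gsg1l and Lrrtm1 were not analysed here. For LPS against vehicle and for age, 0 of the 38 were called in either region or in the region difference. In CA1, 6 of the 38 were called in young LPS against aged vehicle, 5 of them higher, where 8.73% of all genes were called. Cacng8, the auxiliary AMPA subunit enriched in hippocampus, was 2539 ± 609 in young LPS (SD, n = 8) and 1521 ± 265 in aged vehicle (SD, n = 6), a log2 difference of 0.72 (SE 0.17, adjusted p = 0.0490). Cacng7, of the same family, was 3001 ± 803 in young LPS and 2112 ± 293 in aged vehicle, a log2 difference of 0.48 (SE 0.14, adjusted p = 0.0490). Dlg4, which encodes the main scaffold of the postsynaptic density, was 17962 ± 3194 in young LPS and 12909 ± 1927 in aged vehicle, and Arc, an activity-induced gene whose protein promotes removal of AMPA receptors from the surface, 3098 ± 1267 and 1461 ± 306, log2 differences of 0.47 and 1.01.

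Cpt1c and Sacm1l, which act on export of AMPA receptors from the endoplasmic reticulum, moved in opposite directions. Cpt1c was 2326 ± 432 in young LPS and 1638 ± 329 in aged vehicle, a log2 difference of 0.51 (SE 0.14, adjusted p = 0.0490), and Sacm1l 448 ± 145 and 931 ± 697, a log2 difference of -0.90 (SE 0.28, adjusted p = 0.0490). Without rat 2532 none of the 6 passed, with adjusted p-values from 0.119 to 0.132. Cacng8, Cpt1c, Arc, Cnih2 and Cacng3 had a higher and Sacm1l a lower CA1 minus DG difference in young LPS than in aged vehicle, with contrasts of 0.96, 0.67, 0.77, 0.61, 0.55 and -1.08 (6 of 38, against 12.6% of all genes; limma adjusted p-values of 0.0252 to 0.0449). Without rat 2532 none of these contrasts passed either, with adjusted p-values from 0.0765 to 0.158. The kainate auxiliary subunits Neto1 and Neto2 and the delta receptor Grid1 were called in no comparison, nor were the editing enzymes Adar, Adarb1 and Adarb2. Over the 38 partners the median log2 difference in this CA1 comparison was 0.13, against 0.02 over all genes.

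Within groups Gria2, Gria3, Gria4, Grik1 and Grik2 mostly varied together in CA1, and Grik5 varied opposite to them. Log2 counts were centred on each group, and of 36 pairs 16 had a correlation across the 22 rats with an adjusted permutation p below 0.05 (100000 permutations within groups, 72 pairs over both regions), 15 of them also by rank. Gria2 and Gria3 were the closest pair, with r = 0.92 and rho = 0.89 (permutation p = 1e-05 each, the smallest that the permutations can give, and adjusted p = 0.00036); r was 0.88 without rats 2411 and 2532, the farthest from the Gria2 median. Within series 24 and 25 it was 0.92 and 0.94. Gria4 followed Gria2 (r = 0.87, rho = 0.81) and Grik2 (r = 0.84, rho = 0.89), and Grik1 followed Gria3 (r = 0.70, rho = 0.74). Within this set of 5 genes, Grik1 with Grik2 did not pass (r = 0.30, adjusted permutation p = 0.345).

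Grik5 ran against that set. Its correlation was -0.84 with Gria3 (rho -0.87, adjusted p = 0.0009), -0.82 with Gria4, -0.81 with Grik1, -0.76 with Gria2 and -0.59 with Grik2. Gria1 was the one member with a passing positive correlation with it (r = 0.83, rho = 0.72, adjusted p = 0.0009; 0.71 without rats 2403 and 2532). Gria1 itself passed against Grik1 (r = -0.78, adjusted permutation p = 0.00272), though not by rank. It did not pass with Gria2, Gria3, Gria4 or Grik2. For Grik5 with Gria3, r was -0.77 without rats 2404 and 2532, -0.85 within series 24 and -0.87 within series 25. Grik3 and Grik4 were in no passing pair in CA1.

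**Figure D5:**
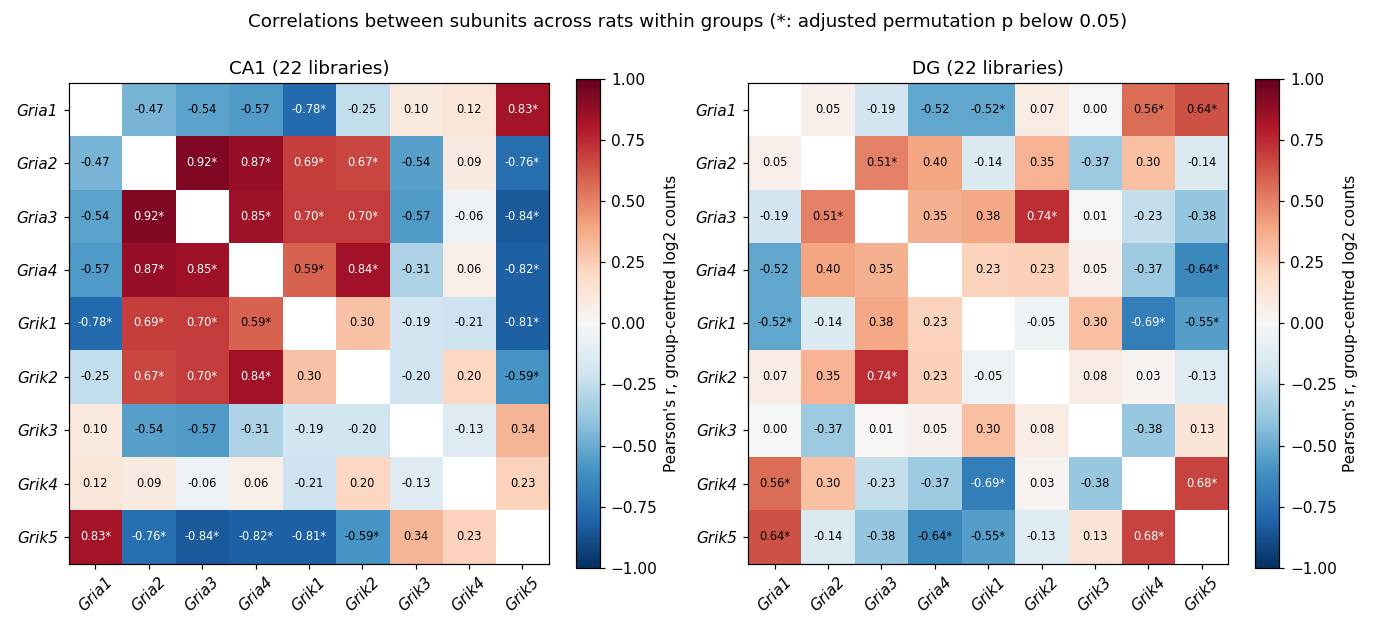
Pearson's r between subunits across 22 libraries of CA1 and of DG, from log2 counts centred on each group; colour runs from -1 to 1 and asterisks mark an adjusted permutation p below 0.05. In CA1 the block of Gria2, Gria3, Gria4, Grik1 and Grik2 is positive within itself and negative with Grik5, and in DG the strongest pairs are Gria3 with Grik2 (0.74) and Grik1 with Grik4 (-0.69).

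The pattern in CA1 was shared with many other genes. Gria2 had |r| above 0.8 with 10.8% of the 14914 other tested genes, 968 of them positive and 650 negative, Gria3 with 13.3% and Grik5 with 10.6%, against 0.0134% for Grik4. Without rat 2532 the shares were 3.23% for Gria2, 8.66% for Gria3, 5.06% for Grik5 and 0.0805% for Grik4. The most like genes, by r over 22 libraries, were Prpf4b (0.96) and Usp33 (0.96) for Gria2, Ttc14 (0.97) and Arglu1 (0.97) for Gria3, Ctdspl2 (0.96) and Cep70 (0.94) for Gria4, and Grin1 (0.97) and Syt3 (0.96) for Grik5. Grin1 encodes the obligatory subunit of NMDA receptors. For other members they were Amer3 (0.91) and Prkce (0.90) for Gria1, Srpk2 (0.89) and Cdh18 (0.89) for Grik1, Syt2 (0.88) and Btbd8 (0.87) for Grik3, and Ttc4 (0.86) and Ddb2 (0.80) for Grik4.

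In DG, 9 of 36 pairs passed, 4 of them also by rank. Gria3 with Grik2 had r = 0.74 (rho 0.65, adjusted p = 0.030), which was 0.39 without rats 2526 and 2572 and so rested in part on them. Grik4 and Grik5, the subunits that need a partner, varied together (r = 0.68, rho = 0.58, adjusted p = 0.00517; 0.53 without rats 2408 and 2410). Gria4 ran against Grik5 as in CA1 (r = -0.64, rho = -0.66, adjusted p = 0.0117; -0.70 without rats 2403 and 2404), at -0.66 within series 24 and -0.65 within series 25. Grik1 ran against Grik4 (r = -0.69, adjusted p = 0.0215), but without rats 2408 and 2410 r was -0.26, and by rank the pair did not pass. Gria2 had |r| above 0.8 with 0.0537% of the other genes in DG.

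By r over the 22 DG libraries, Grik4 was most like Homer3 (0.94) and Neto1 (0.93), a kainate receptor auxiliary subunit, and Grik5 most like Camta2 (0.94) and Inpp5j (0.93). Grik2 was most like Etnk1 (0.92) and Rbm5 (0.92), and Gria3 most like Trpm7 (0.89) and Zscan26 (0.88). The remaining members had Pcdh1 (0.87) for Gria1, Cpsf6 (0.86) and Lrrtm2 (0.81) for Gria2, Plcl1 (0.85) and Fam208a (0.80) for Gria4, Ankrd34b (0.87) and Elmo1 (0.87) for Grik1, and Dpysl4 (0.86) and Igsf3 (0.86) for Grik3.

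Markers of other cells moved with some subunits, and their part in the results above was not tested. The mean log2 level of each marker list was set against each subunit in the same way, 198 pairs in all. In DG, Grik4 ran against the 8 CA1 pyramidal markers (r = -0.74, rho = -0.78, adjusted p = 0.00297; -0.70 without rats 2531 and 2573) and against the 6 oligodendrocyte markers (r = -0.77, rho = -0.69, adjusted p = 0.00594; -0.53 without rats 2408 and 2410). Within series 24 and 25 these were -0.91 and -0.48 for the pyramidal markers and -0.87 and -0.70 for the oligodendrocyte markers. Grik1, by contrast, ran with the oligodendrocyte markers across DG libraries (r = 0.82, rho = 0.68, adjusted p = 0.00594; 0.59 without rats 2408 and 2410). The summed counts of the oligodendrocyte markers in DG had medians of 67079 in young LPS, 70369 in aged vehicle and 72113 in young vehicle rats.

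In CA1, Gria2, Gria3, Gria4 and Grik2 ran against the 8 markers of oligodendrocyte precursors, with r of -0.73, -0.79, -0.76 and -0.81 (rho -0.68, -0.76, -0.81 and -0.79; adjusted p between 0.00297 and 0.00594). Without rats 2404 and 2532 these were -0.58, -0.66, -0.73 and -0.77. In young LPS against aged vehicle, 2 of these 8 markers were called higher, where 8.73% of all genes were called. Their summed counts were 5244 to 9091 in young LPS rats and 4995 to 7065 in aged vehicle rats. The 4 endothelial markers tested ran the same way, with r of -0.63, -0.73, -0.64 and -0.78 for these 4 subunits, and 1 was called higher. No marker of CA1 pyramidal cells, dentate granule cells, astrocytes, oligodendrocytes or microglia was called in that CA1 comparison, and 1 of 12 interneuron markers was called lower. Without rat 2532 limma called 0 of the 14915 genes there, so none of these marker calls held.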

How the data were processed

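Per the labels' protocols, polyadenylated RNA was sequenced with Ion Torrent chemistry. The authors deposited 1 table of normalized counts per region, a signal that is never negative; the tools STAR, Partek and DESeq2 and the build rn6 appear, per the submitters' processing notes, without versions, and whether counting used strand is not given in the sources used here. Deposited values are whole multiples of the value of 1 read; dividing by it made 99.75% of CA1 values and 99.98% of DG values whole reads (tolerance 0.1), with fractions in 240 and 11 rows. Reads were not counted by molecule, so depth bounds counting error alone.

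Genes with at least 10 in at least 6 libraries were tested, 14915 in CA1 and 14904 in DG. limma 3.58.1 (R 4.3.3; trend, robust) was fitted to log2(value + 1) over all 3 groups of a region; p-values were adjusted by Benjamini-Hochberg over all genes and called below 0.05; this scale understates changes of low genes. Regions were compared by CA1 minus DG within a rat: titles give the rat and both regions came from 1 hippocampus, and deviations of paired libraries had a median correlation of 0.051, above 0.1 in 8 of 22 rats. Alternatives were pseudocounts of 5 and 0.25, no filter or a mean of at least 50, TMM, edgeR 4.0.16, DESeq2 1.42.0, array weights, 2-group fits, the number series, a dissection score and leaving out each rat. Procedures were tested on simulated data.

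Named genes are all members, partners past the threshold or with the 2 lowest p-values of their role, and the 2 genes most correlated with each member; partners outside the threshold are mostly given as counts. Some genes that this rule names are not reported here. Correlations used 100000 permutations within groups. Members and lists were chosen with earlier results of these data known.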

Additional observations from a re-analysis of the deposited data

Results flagged for a closer look

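Of 54 sets of libraries examined (9 subunits, 2 regions, 3 groups), 8 had an extreme library whose gap to its neighbour took an unusually large share of the range, where chance gives about 1 in 20 for a single set. The sets share libraries and hold correlated subunits, so they are not independent of each other. In CA1, aged rat 2532 gave 4 of the 8, with the highest Gria3 (10277), Gria4 (1987) and Grik1 (497) and the lowest Grik5 (1052). Young vehicle rat 2572 had the lowest Gria2 of its group in CA1 (7460). In DG, LPS rat 2573 had the highest Gria2 (18507), aged rat 2415 the lowest Gria1 (7524) and young vehicle rat 2410 the highest Grik1 (273).

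The difference between young LPS and aged vehicle itself differed between the regions, CA1 minus DG, for 3 subunits: -0.80 for Gria2, -0.89 for Gria3 and 0.85 for Grik5 on the log2 scale, by limma on within-rat differences. Without rat 2532 the contrasts were -0.58, -0.67 and 0.68, and none passed.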

How the results depend on the processing

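The count of 2 members called in CA1 for young LPS against aged vehicle moved with most choices. It was 0 with no filter, with only the 2 groups fitted, with a pseudocount of 0.25 and in rats numbered 25 only (chosen after seeing the data), 1 under TMM scaling, 3 with the dissection score or a mean of at least 50, 4 by edgeR, 5 with array weights or the number series and 6 by DESeq2, and from 0 to 5 leaving out 1 rat; for the settings with more or fewer libraries or genes the design itself changed, and otherwise the cause was not tested. Genes called there were 1302, from 0 to 3496 under alternatives and from 0 to 3399 leaving out 1 rat; in the region difference they were 1844, from 0 to 2794 leaving out 1 rat, and in DG 2, up to 171. For aged against young vehicle in CA1 they were 2, up to 303. The share of all genes called thus changed with the setting too, and the counts of members are not read against 1 share. Young LPS against aged vehicle in DG gave 1 member with array weights and 0 otherwise. The region difference of young LPS against aged vehicle gave 3, and from 0 to 4 leaving out 1 rat; 4 with the number series, and 3 with pseudocounts of 5 or 0.25 and without the replicate block (the rat), where Arc lost its call (adjusted p = 0.107). Counts for the other 6 comparisons were 0 under every alternative run, and no member's called value changed sign; 80 of 2538 member estimates under alternatives had another sign, none of them called. Depth limits little here, as every value rests on at least 79 reads.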
